A study of Homo sapiens with 8 samples.

Results

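The genes described here are 10 neuropeptide precursors and neuropeptide receptors of SK-N-BE(2), an established human neuroblastoma line with amplified MYCN. The precursors are VIP, NPY, GAL, SST, TAC1 and SCG2, and the receptors are CCKAR, VIPR1, VIPR2 and ADCYAP1R1. They were picked by symbol, with earlier results of these data known, from the 56303 genes of the count table, so their own changes are given as a description without p-values. All cells carried a lentiviral pLKO.1 hairpin and were selected with puromycin. The hairpin was a control (sh-NC) in one arm and targeted METTL14, a subunit of the methyltransferase that places N6-methyladenosine (m6A) on mRNA, in the other (shMETTL14). Each arm had 2 numbered replicates, and each replicate gave an input library of fragmented polyadenylated RNA and a library of the fragments bound by an antibody to m6A (IP), 8 libraries in all. The labels do not say whether the replicates were separate cultures, or whether shMETTL14 replicates 1 and 2 carried the same hairpin, so the errors below cover the spread between these samples only. In these bulk RNA samples, fewer cells of a kind and less RNA per cell cannot be told apart.

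Neuropeptides are made as long precursors, cut to size by prohormone convertases inside dense-core vesicles, and released to act on G protein-coupled receptors. VIP and its relative PACAP act on VIPR1, VIPR2 and ADCYAP1R1, which mainly raise cyclic AMP, and neuroblastoma cells are known to respond to them by differentiating. NPY is a co-transmitter of sympathetic neurons, the lineage from which neuroblastoma arises. In sequencing of m6A-bound RNA (MeRIP-seq), the input library measures the RNA level of a gene, and the ratio of IP to input measures how much of that RNA the antibody bound relative to the average gene. A shift shared by all transcripts is not visible in that ratio. Reads are summed over the exons of a gene, so a change at a single m6A site can be diluted in the ratio.

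The libraries held 32027379 to 47205265 counts. METTL14 itself, at chr4:118685368-118715433 (GRCh38), had an input level of 49.2 ± 0.550 CPM (counts scaled to library size) for sh-NC and of 14.2 ± 0.680 for shMETTL14 (SD, n = 2), a log2 change of -1.79 (SE 0.0663, edgeR adjusted p = 1.279e-15). Of the genes that mark adrenergic neuroblastoma cells, HAND2 had a mean input level of 994 CPM in sh-NC against 1088 in shMETTL14 (log2 0.14, edgeR adjusted p = 0.0009898), GATA3 of 125 against 151 (log2 0.28, edgeR adjusted p = 2.707e-05), and MYCN of 4338 against 4293 (edgeR adjusted p = 0.8779). The call of HAND2 was lost without shMETTL14 replicate 1 (log2 0.12) or replicate 2 (0.15). ISL1, DBH and TH of the same kind also rose. These 6 genes were named after their values were seen, so their direction is no test of adrenergic markers as a set. The 5 Schwann cell markers summed to 5.14 to 6.04 CPM. Of 7 mesenchymal markers 1 rose (PRRX1) and 5 fell in shMETTL14, beside 11.7% called higher and 12.3% lower over all genes. The 7 markers summed to 2339 and 2407 CPM in the sh-NC inputs against 1923 and 1926 in shMETTL14. Without shMETTL14 replicate 1 or replicate 2, FN1 (log2 -0.14 and -0.16) and CD44 (-0.12 and -0.20) were no longer called lower. PRRX1 lost its call without sh-NC replicate 2 (1.11), shMETTL14 replicate 1 (1.60) or shMETTL14 replicate 2 (1.44). The part of these marker shifts in the neuropeptide results was not tested.

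Many neuropeptide genes are switched on through the cyclic AMP response element, a motif bound by CREB. Promoter windows of 300 bases (250 before to 50 after the RefSeq start, GRCh38.p14) matched 7 of the 10 genes by symbol, and CCKAR, GAL and SCG2 were not searched. The full element, TGACGTCA, occurred in 1.85% of 35116 promoters, and its shorter core, TGACG or on the other strand CGTCA, in 24.6% (a full element also counts as cores). The stretches of VIP and SST that hold these letters are shown. VIP was picked as the only one of 4 tested precursors called lower, and SST because it alone among the 7 had the full element. The capitals mark the motif letters.
VIP, chr6:152750700-152750729, plus strand: cccatggcCGTCAtactgTGACGtctttca
SST, chr3:187670423-187670452, minus strand: gcctcctagccTGACGTCAgagagagagtt
The VIP stretch lay between -97 and -68 bases from the RefSeq start, and the SST stretch between -58 and -29. TAC1 had 1 core at -197, as did VIPR1 at -75 in 1 of its windows, and no match was found for NPY, VIPR2 or ADCYAP1R1 in these windows. These matches are letters only, and binding there was not measured.

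Levels of different genes were compared as input CPM per kilobase of exon. In sh-NC cells SCG2, the precursor secretogranin II of dense-core vesicles, was highest at 267, followed by VIP at 69.0, NPY at 50.9 and GAL at 38.0. The receptors lay below every one of these precursors, with CCKAR at 5.42, VIPR2 at 1.27 and ADCYAP1R1 at 0.962. SST was at 0.135, and VIPR1 and TAC1 were at 0.0151 and 0.0147, the only neighbours in this order whose replicates overlapped. In shMETTL14 cells the order differed at several places. SCG2 stayed at the top with 292, NPY followed at 70.0, GAL at 37.8 and VIP at 27.4, so VIP moved from second place to below GAL. VIPR2 at 1.80 and ADCYAP1R1 at 1.11 then stood above CCKAR at 1.05, although the replicates of ADCYAP1R1 and CCKAR overlapped. SST was at 0.422, VIPR1 at 0.0323 and TAC1 at 0.

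Between the arms, the input levels of VIP and CCKAR fell in shMETTL14, those of NPY, VIPR2 and, by a small amount, SCG2 rose, and the GAL replicates overlapped between the arms. Of the 7 genes with enough counts for the test, 3 were called higher and 2 lower (edgeR quasi-likelihood test, adjusted p below 0.05), against 11.7% of 22245 genes called higher and 12.3% called lower. Their median log2 change was 0.14, beside 0.00236 over all genes tested. Since the 10 genes were chosen with these changes in view, nothing about neuropeptide genes as a class is read from the count. The log2 changes below come from the fit of the 4 inputs, and the CPM values are scaled over all 8 libraries, so the ratios of the means differ slightly from the fitted changes.

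VIP, vasoactive intestinal peptide, lies at chr6:152750798-152759765 on the plus strand (GRCh38), and its 1584 exon bases overlap no other gene. The inputs held 3965 and 3881 VIP counts in sh-NC against 1866 and 1790 in shMETTL14. That is 111 and 108 CPM (mean 109 ± 2.35, SD, n = 2) against 44.0 and 42.8 (43.4 ± 0.840). Every sh-NC library was thus far above every shMETTL14 library of the same kind, since the IP libraries also differed, at 140 ± 3.75 against 56.4 ± 0.163 CPM. The log2 change of the input was -1.32 (SE 0.0465), the sh-NC mean being 2.52 times the shMETTL14 mean, and 150 of the genes tested had a lower log2 change. With 1 replicate left out in turn, it lay between -1.35 and -1.30.

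NPY, neuropeptide Y, at chr7:24284163-24291865 on the plus strand, moved the other way. Its inputs held 1700 and 1666 counts in sh-NC against 2766 and 2660 in shMETTL14, which is 47.6 and 46.2 CPM against 65.3 and 63.7. The arms did not overlap. The log2 change was 0.47 (SE 0.050), the shMETTL14 mean being 1.38 times the sh-NC mean.

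GAL, the precursor of galanin, at chr11:68683779-68691175 on the plus strand, gave 1806 and 1738 input counts in sh-NC against 2134 and 1999 in shMETTL14. Scaled for depth these were 50.5 and 48.2 CPM against 50.3 and 47.8, so the arms overlapped almost completely. The log2 change was -0.00090 (SE 0.0535).

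SCG2, at chr2:223596940-223602503 on the minus strand, had 26675 and 25517 input counts in sh-NC against 33311 and 33596 in shMETTL14. In CPM the inputs were at 746 and 707 against 786 and 804, without overlap. The rise was small, at a log2 change of 0.14 (SE 0.0317) or 1.09 times the sh-NC mean. It was no longer past the threshold when all genes with at least 1 read were kept (log2 change 0.15), or without shMETTL14 replicate 2 (0.12).

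CCKAR, the cholecystokinin A receptor, showed the largest change of the 7 genes. It lies at chr4:26481400-26490462 on the minus strand, with 1720 exon bases that overlap no other gene. Its inputs held 326 and 343 counts in sh-NC against 70 and 82 in shMETTL14, or 9.12 and 9.51 CPM against 1.65 and 1.96. The IP libraries showed the same difference, with 649 and 434 counts against 90 and 105. The log2 change of the input was -2.36 (SE 0.151), and only 14 of the genes tested had a lower one. The sh-NC mean was 5.16 times the shMETTL14 mean, and leaving out 1 replicate in turn gave log2 changes of -2.49 to -2.24.

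VIPR2, a receptor shared by VIP and PACAP, lies at chr7:159028175-159144957 on the minus strand, and 2021 of its 5222 exon bases (38.7%) are also exons of LINC00689 on the opposite strand. Its inputs held 212 and 265 counts in sh-NC against 392 and 400 in shMETTL14, or 5.93 and 7.35 CPM against 9.25 and 9.57. The arms did not overlap, and the log2 change was 0.51 (SE 0.121). LINC00689 had 114 and 157 input counts in sh-NC against 232 and 219 in shMETTL14 and the same log2 change of 0.51. Whether counting used the strand is not stated, so reads of the 2 genes in the shared exons cannot be told apart. The call was lost with all genes of at least 1 read kept (log2 change 0.52), without sh-NC replicate 1 (0.36) and without shMETTL14 replicate 2 (0.48).

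ADCYAP1R1, the receptor selective for PACAP, at chr7:31052461-31111479 on the plus strand, gave 232 and 240 input counts in sh-NC against 350 and 289 in shMETTL14. In CPM these were 6.49 and 6.65 against 8.26 and 6.92. The sh-NC values lay below both shMETTL14 values, but by little for shMETTL14 replicate 2, and the log2 change of 0.21 (SE 0.126) did not pass the test.

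The other 3 genes had too few counts to test. SST, the precursor of somatostatin, at chr3:187668906-187670399, had 2 and 4 input counts in sh-NC and 14 and 8 in shMETTL14, and 42 counts over all libraries. VIPR1, the other VIP receptor, at chr3:42489299-42537573, had 4 and 4 against 6 and 14 input counts and 36 in all, with 844 of its 7384 exon bases shared with its antisense gene VIPR1-AS1. VIPR1-AS1 held 3 and 0 input counts in sh-NC against 7 and 12 in shMETTL14, and reads of the shared bases cannot be told apart. TAC1, the precursor of substance P, at chr7:97731908-97740472, had 4 counts in all and 0 in 6 of the 8 libraries. A count of 0 allows up to 3 counts, which is 0.0660 to 0.0986 CPM in these libraries, for counting error only. Differences between the arms were not tested for these genes at this depth.

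The antibody bound the 7 tested genes very unevenly, in the same order of SCG2, CCKAR and VIP at the top and GAL at the bottom in both arms. The ratio of SCG2, VIP and CCKAR was above the average gene, and that of NPY and GAL below it, in sh-NC and in shMETTL14. Hence 3 genes were called higher and 2 lower in each arm. Calls are common in this contrast. Over all 22953 genes tested, the control arm gave 29.1% higher and 29.8% lower, and the knockdown arm 28.9% higher and 29.1% lower.

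SCG2 had the highest ratio, at 2.28 and 2.51 in sh-NC, compared with 2.27 and 2.19 in shMETTL14. The log2 of IP over input was 1.26 (SE 0.0356) in sh-NC, with 638 genes above it, and 1.16 (SE 0.0354) in shMETTL14. CCKAR followed with 1.56 and 1.50 against 1.77 and 1.58, and VIP with 1.24 and 1.33 against 1.28 and 1.31. While the RNA level of both genes fell in shMETTL14, the ratios there lay above the sh-NC ratios for CCKAR and between them for VIP. In log2, CCKAR was at 0.61 (SE 0.112) and 0.74 (SE 0.175), and VIP at 0.36 (SE 0.0437) and 0.38 (SE 0.0499).

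NPY was bound less than average, with ratios of 0.766 and 0.763 in sh-NC, compared with 0.745 and 0.833 in shMETTL14. GAL had the lowest ratio of the 7, at 0.482 and 0.493 against 0.440 and 0.501. Its log2 of IP over input was -1.03 (SE 0.0626) in sh-NC and -1.09 (SE 0.0634) in shMETTL14. VIPR2 and ADCYAP1R1 stood near the average gene and passed the test in neither arm. VIPR2 had ratios of 0.979 and 0.769 against 0.923 and 1.02, and ADCYAP1R1 of 0.915 and 0.790 against 0.841 and 1.05, so that the arms overlapped for each.

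A difference of this ratio by arm was called for 0 of the 7 genes by edgeR and by DESeq2. The replicate ratios of SCG2 and CCKAR did not overlap between the arms, and those of the other 5 did. How many of all genes had ratios without overlap was not counted, so no difference by arm is read from this. At an unadjusted p below 0.05 edgeR gave 1, SCG2, which was lower in shMETTL14. The share of all genes at that unadjusted threshold was not counted, so nothing is read from this. At the adjusted threshold, 0% of all 22953 genes were called higher and 0.00436% lower, which is 1 gene. The log2 changes of the 7 genes ran from -0.10 (SE 0.0495) for SCG2 to 0.17 (SE 0.176) for VIPR2. For VIP the change was 0.02 (SE 0.0663), for CCKAR 0.12 (SE 0.207), for NPY 0.04 (SE 0.0784) and for GAL -0.05 (SE 0.0896). The error was thus larger than the change for each of the 7 genes but SCG2, and the counts of CCKAR in shMETTL14 were low. SCG2 passed the threshold without sh-NC replicate 1, with a log2 change of -0.19, and was at -0.03 and not past it without sh-NC replicate 2.

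Of 62 other neuropeptide precursors, the table held no count for 16 in any library and 25 were tested for input level. Of these 2 rose (ADM, PENK) and 2 fell (ADCYAP1, VGF), with a median log2 change of -0.06, against 11.7% higher and 12.3% lower over all genes. Over the 12 alternatives the counts ran from 0 to 3 in each direction. ADCYAP1, the gene for PACAP and so the ligand of ADCYAP1R1 and VIPR2, had 210 and 264 counts in sh-NC against 212 and 197 in shMETTL14, or 6.60 ± 1.02 against 4.86 ± 0.203 CPM (SD, n = 2), and 15.7% of its exon bases are shared with another gene. Its log2 change was -0.43 (SE 0.140, edgeR adjusted p = 0.02479). VGF, a granin-like precursor and the highest of this list per length, went from 335 to 305 CPM (log2 -0.13, SE 0.0328, edgeR adjusted p = 0.004658). ADM, the precursor of adrenomedullin, rose from 11.9 to 14.6 CPM (log2 0.29, SE 0.104, edgeR adjusted p = 0.0411). NMU, the precursor of neuromedin U, was at 9.44 and 9.03 CPM (edgeR adjusted p = 0.7867). The calls of ADCYAP1 and ADM were lost with DESeq2, at adjusted p = 0.100 and 0.126. Without shMETTL14 replicate 1 or replicate 2, the calls of ADCYAP1 (log2 -0.48 and -0.40), ADM (0.28 and 0.31) and VGF (-0.13 in each case) were lost, as were those of ADCYAP1 without sh-NC replicate 2 (-0.27) and of ADM without sh-NC replicate 1 (0.12). PENK lost its call without sh-NC replicate 1 (log2 1.76), shMETTL14 replicate 1 (2.14) or shMETTL14 replicate 2 (1.88).

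Among 78 other receptors and receptor partners for peptides, 30 were tested, 3 rose (NPY2R, CRHR2, PROKR1) and 2 fell (CALCRL, NPR1), with a median log2 change of 0.09, beside the same 11.7% and 12.3% over all genes. The counts ran from 0 to 5 higher and from 0 to 2 lower over the 12 alternatives. CALCRL, the receptor subunit for adrenomedullin and CGRP, had 79 and 64 input counts in sh-NC against 30 and 27 in shMETTL14 (log2 -1.55, SE 0.294, edgeR adjusted p = 0.0003148). NPR1, a natriuretic peptide receptor, had 759 and 864 against 735 and 705 (log2 -0.39, SE 0.0795, edgeR adjusted p = 0.0005674). NPY2R, a receptor for the NPY that also rose, had 287 and 331 against 463 and 437 counts (log2 0.32, SE 0.108, edgeR adjusted p = 0.03225). DESeq2 did not call it (adjusted p = 0.117). PROKR1, a prokineticin receptor, rose by log2 0.68 (SE 0.156, edgeR adjusted p = 0.002009), and 38.1% of its exon bases are shared with APLF, which held more counts and had a log2 change of 0.32. The 3 receptor genes with the highest level per length passed no test: RAMP1, the partner of CALCRL, was at 13.0 and 14.1 CPM, NPR2 at 23.7 and 25.7, and OPRD1, the delta opioid receptor, at 42.5 and 44.1. Without shMETTL14 replicate 2 the calls of CALCRL (log2 -1.49), NPR1 (-0.38), NPY2R (0.35) and PROKR1 (0.71) were lost, and that of NPY2R also without shMETTL14 replicate 1 (0.29) or sh-NC replicate 1 (0.23). CRHR2 lost its call without sh-NC replicate 1 (1.26), shMETTL14 replicate 1 (1.34) or shMETTL14 replicate 2 (1.53). NPR2 passed the threshold without sh-NC replicate 2 (0.23).

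The enzymes and vesicle proteins that process and release peptides moved in both directions. Of 20 listed genes 17 were tested, 5 rose (CADPS, PCSK1N, SCG5, ECE2, PCSK5) and 5 fell (PCSK1, CPD, SCG3, CPE, ECE1), with a median log2 change of -0.05, beside 11.7% and 12.3% over all genes. Over the 12 alternatives 2 to 5 were called higher and 4 to 5 lower. PCSK1, a prohormone convertase, had 328 and 318 counts in sh-NC against 174 and 212 in shMETTL14, and PCSK1N, the inhibitor of that enzyme, rose. PCSK1 went from 9.0 ± 0.254 to 4.59 ± 0.685 CPM (log2 -0.96, SE 0.132, edgeR adjusted p = 4.996e-06), and PCSK1N from 17.5 to 22.2 CPM (log2 0.35, SE 0.0872, edgeR adjusted p = 0.004147). CPD, a carboxypeptidase, fell from 32.2 to 19.2 CPM (log2 -0.74, SE 0.0700, edgeR adjusted p = 2.086e-08). SCG3, secretogranin III, fell from 72.3 to 53.7 CPM (log2 -0.42, SE 0.0525, edgeR adjusted p = 1.399e-06). CADPS, which primes dense-core vesicles for release, rose from 38.1 to 54.1 CPM (log2 0.51, SE 0.0566, edgeR adjusted p = 2.167e-07). The call of PCSK1N was lost without sh-NC replicate 1 (log2 0.20), shMETTL14 replicate 1 (0.39) or shMETTL14 replicate 2 (0.31), and those of PCSK1, CPD, SCG3 and CADPS held with each replicate left out. Without shMETTL14 replicate 2 the calls of SCG5 (0.31), ECE2 (0.20) and ECE1 (-0.17) were lost, and that of ECE2 also without sh-NC replicate 1 (0.25).

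Downstream of VIP and PACAP receptors, the cyclic AMP list held 31 genes, of which 29 were tested, 4 rose (PRKAR1B, PDE4B, PDE4C, PDE3B) and 4 fell (GNAL, ADCY3, PRKAR2A, PDE3A). The median log2 change was -0.00038, beside 11.7% called higher and 12.3% lower over all genes, and the counts ran from 2 to 5 higher and from 0 to 4 lower over the 12 alternatives. PDE4C, a phosphodiesterase that degrades cyclic AMP, had 88 and 99 counts in sh-NC against 304 and 283 in shMETTL14 (log2 1.43, SE 0.150, edgeR adjusted p = 9.926e-08). It shares 675 exon bases with AC068499.10, which had 25 and 11 against 97 and 83 counts and a log2 change of 2.09, and reads of the shared bases cannot be told apart. PDE4B rose by log2 0.65 (SE 0.201, edgeR adjusted p = 0.01957) and PDE3B by 0.36 (SE 0.0582, edgeR adjusted p = 4.031e-05). PDE3A had 836 and 842 against 803 and 784 counts (log2 -0.30, edgeR adjusted p = 0.002984), a call lost without shMETTL14 replicate 2 (-0.30). PRKAR1B, a regulatory subunit of protein kinase A, rose by log2 0.43 (SE 0.0862, edgeR adjusted p = 0.0004896). GNAL, a stimulatory G protein subunit that shares 28.1% of its exon bases with MPPE1, had a log2 change of -0.67 (SE 0.214, edgeR adjusted p = 0.02425). MPPE1 held more counts than GNAL, 266 and 275 in sh-NC against 303 and 280 in shMETTL14, with a log2 change of -0.11. Reads of the bases shared by GNAL and MPPE1 cannot be told apart either. DESeq2 called neither PDE4B (adjusted p = 0.0860) nor GNAL (adjusted p = 0.107). The call of GNAL was lost with any 1 replicate left out (log2 -0.69 to -0.65), that of PDE4B without sh-NC replicate 2 (0.37), shMETTL14 replicate 1 (0.59) or shMETTL14 replicate 2 (0.70), and that of PRKAR1B without shMETTL14 replicate 2 (0.46). ADCY3 also lost its call with any 1 replicate left out (-0.15 to -0.13), and PRKAR2A without sh-NC replicate 1 (-0.19), shMETTL14 replicate 1 (-0.24) or shMETTL14 replicate 2 (-0.24).

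For IP over input in sh-NC, 5 of 24 other precursors were called higher and 6 lower, 10 and 5 of 34 receptors, 2 and 9 of 17 processing genes, and 11 and 6 of 29 cyclic AMP genes, beside 29.1% and 29.8% over all genes. The corresponding counts for the knockdown arm were 3 and 7, 9 and 5, 1 and 7, and 11 and 8, beside 28.9% and 29.1%. A difference by arm was called for 0 genes of these 4 lists by edgeR. At an unadjusted p below 0.05 it gave 0 higher and 2 lower among the precursors, 0 and 0 among the receptors, 0 and 1 among the processing genes, and 1 and 1 in the cyclic AMP list. The share of all genes at that unadjusted threshold was not counted, so nothing about these lists is read from the counts.

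**Figure D1:**
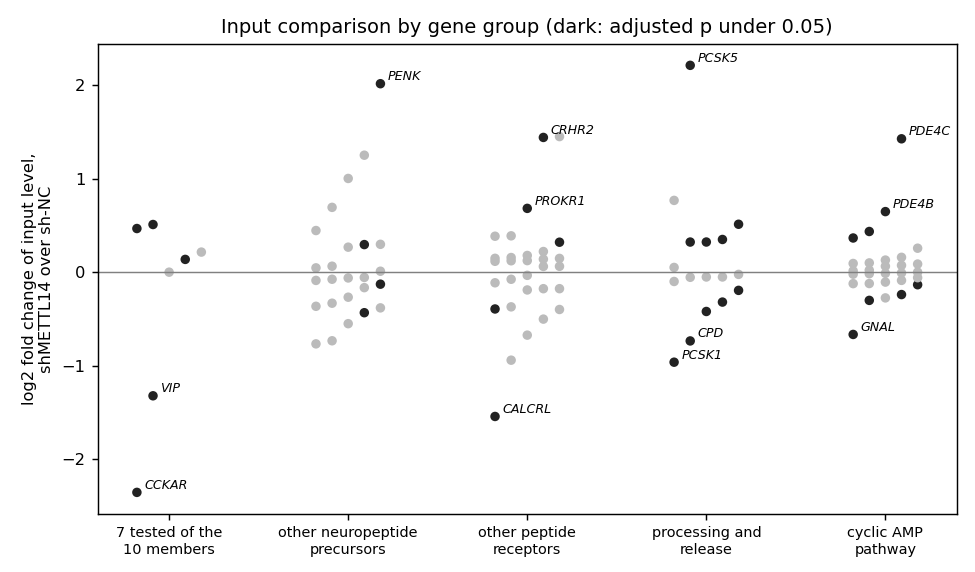
Log2 change of input level, shMETTL14 over sh-NC, for each tested gene of the 5 groups, with 1 point per gene. Points are dark where the edgeR adjusted p was below 0.05. Labels mark the widest changes among genes named in the text only, so some wide points carry no label. CCKAR and VIP lie lowest among the 7 tested of the 10 genes, and most genes of the other lists lie near 0.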

How the data were processed

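Polyadenylated RNA was fragmented, split into input and anti-m6A IP and sequenced with a stranded, UMI-tagged kit. The authors deposited raw counts per gene with the exon length in bases (unit other). Trimmomatic 0.36 and GRCh38 are named in the submitters' processing notes. The aligner, counter, annotation, strand setting and use of UMIs are not given in the sources used here. Libraries held 32027379 to 47205265 counts, and limits set from counts cover counting error only.

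Counts were fitted with edgeR 4.0.16 in R 4.3.3 (TMM, filterByExpr, quasi-likelihood F test, Benjamini-Hochberg over all genes tested, threshold 0.05). The 4 inputs were fitted for the input comparison, and all 8 libraries, as 4 groups, for IP over input and its change. The fits were also run on simulated counts in which only a small set of genes differed between groups. The outcome is not given here, and the wide difference between IP and input was not simulated. Alternatives used DESeq2 1.42.0, other scaling and filters, other samples and a replicate block. Same-numbered samples did not deviate together (r = 0.004 and 5.70e-05 for IP against input within sh-NC and shMETTL14, -0.012 between the inputs of the arms, over 22953 genes). Replicates of a group differed by more than sampling noise (mean chi-square per gene 2.39 to 3.76). The smallest two-sided p of an exact permutation test is 0.333 with 2 samples an arm, so none was used. Exon overlaps were read from the exon coordinates in the table.

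The members and lists were chosen with earlier results of these data known. Genes named from the 4 wider lists were up to 5 per list with the largest log2 change of input past the threshold, a mean of at least 50 counts and no overlap of the arms, plus any precursor or receptor with a changed IP over input (there was none) and the 3 highest per length of each of those lists. The adrenergic marker list is not reported here as a whole, and genes of it were named after their values were seen. Genes named only in counts fall outside this rule and were chosen after their values were seen.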

Additional observations from a re-analysis of the deposited data

How the results depend on the processing

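The input changes of VIP, CCKAR and NPY kept their direction and their calls under all 12 alternatives. Of 318 values for the 7 tested genes, 293 kept direction and side of the threshold, 5 lost the call, 5 gained one and 15 reversed. For the other named genes 202 of 244 input values kept both, 40 lost the call, 1 gained one and 1 reversed. The causes were not tested. Keeping every gene with at least 1 read gave 1082 genes higher and 1072 lower in the input comparison (1 of the 7 genes higher), and 1 higher and 12 lower for the change of IP over input. Genes that share no exon base with another gene, a setting chosen after seeing the data that tests fewer genes, gave 1267 higher and 1445 lower in the input comparison, 3257 and 3310 for IP over input of the control arm, 3208 and 3254 for the knockdown arm, and 0 lower for the change. The change was called lower for 0 genes by DESeq2, 2 with RLE factors and 3 with at least 10 counts in every library. The IP libraries alone, which do not divide by input and so carry the RNA level, gave 2207 genes higher and 2667 lower, among them 2 and 2 of the 7 genes, with log2 values of -1.31 for VIP, -2.24 for CCKAR and 0.0266 for SCG2. Scaling by library size alone called 4 of the 7 genes lower for IP over input in sh-NC, adding VIPR2 and ADCYAP1R1. Over all genes that setting called 5358 higher and 8250 lower in sh-NC, against 6689 and 6833 in the main fit.

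Leaving out 1 replicate of an arm assumes that the lone sample varies like the others. It gave 656 to 2366 genes higher and 925 to 2590 lower in the input comparison, the fewest without shMETTL14 replicate 2, and 0 to 9 higher (9 without sh-NC replicate 2) and 0 to 116 lower (116 without sh-NC replicate 1) for the change. Of the 7 genes it called 1 to 3 higher in the input comparison, and 0 to 1 lower for the change. GAL, near 0 in the input comparison, turned to 0.00600 (library size), 0.0132 (no filter) and 0.00125 (at least 10 counts), and ran from -0.0388 to 0.0323 over the replicates left out, above 0 without sh-NC replicate 1 and, at 0.0316, without shMETTL14 replicate 2. NMU ran from -0.202 to 0.101, above 0 without sh-NC replicate 2. The change of IP over input ran across 0 for VIP (-0.0507 to 0.0652, negative without sh-NC replicate 1), VIPR2 (-0.0103 to 0.320, negative without sh-NC replicate 2), GAL (-0.149 to 0.0354, positive without shMETTL14 replicate 1), NPY (-0.0389 to 0.120) and ADCYAP1R1 (-0.0277 to 0.288), the last pair negative without shMETTL14 replicate 2. In shMETTL14, IP over input ran from -0.111 to 0.0267 for VIPR2 and from -0.245 to 0.0718 for ADCYAP1R1, positive without shMETTL14 replicate 1.

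With the replicate block, 2744 genes were called higher and 2849 lower in the input comparison, and the block changed no call of the 7 genes. IP over input gave 6576 and 6685 for the control arm, 6512 and 6548 for the knockdown arm, and for the change 0 and 1. Depth limits SST, VIPR1 and TAC1, and 2 replicates per arm limit every comparison.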

Other observations

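Genes of transmitter synthesis and vesicular transport, chosen after their values were seen, moved beside the neuropeptides. TH, the first enzyme of catecholamine synthesis, had 1167 and 1287 input counts in sh-NC against 2921 and 2935 in shMETTL14 (log2 1.03, SE 0.0546, edgeR adjusted p = 7.94e-13). DBH, which makes noradrenaline, had 85 and 84 against 189 and 164 (log2 0.84, SE 0.176, edgeR adjusted p = 0.0008676). SLC18A3, the vesicular acetylcholine transporter, had 349 and 312 against 299 and 285 (log2 -0.40, SE 0.116, edgeR adjusted p = 0.01225). NPY is a known co-transmitter of noradrenergic sympathetic neurons and VIP of cholinergic ones. A link between the changes of these genes and those of NPY and VIP was not tested. SLC18A3 was not called by DESeq2 (adjusted p = 0.0565), nor without sh-NC replicate 1 (log2 -0.31), shMETTL14 replicate 1 (-0.43) or shMETTL14 replicate 2 (-0.38). The fitted changes of the other tested cholinergic markers had the opposite sign. ACHE had 16 and 13 against 24 and 42 counts (log2 0.96, edgeR adjusted p = 0.1289), SLC5A7 had 18 and 22 against 30 and 34 (log2 0.45, edgeR adjusted p = 0.4781), and CHAT had 8 and 12 against 2 and 6, too few to test.

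Of the genes called higher in the wider lists, the 3 with the widest rises had few counts. PDE4C, with more counts, came close behind at a log2 change of 1.43. PCSK5, a convertase, had 14 and 8 input counts in sh-NC against 58 and 62 in shMETTL14 (log2 2.21, SE 0.393, edgeR adjusted p = 0.0001422). PENK, the precursor of the enkephalins, had 4 and 6 against 22 and 26 (log2 2.02, SE 0.576, edgeR adjusted p = 0.01148), with 20.1% of its exon bases shared with another gene. CRHR2, a receptor for urocortins, had 9 and 12 against 36 and 31 (log2 1.44, SE 0.455, edgeR adjusted p = 0.02193). The calls of PENK and CRHR2 were lost without sh-NC replicate 1 and without either shMETTL14 replicate, and DESeq2 gave no adjusted p for these 3 genes.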
